A study of Rattus norvegicus with 24 samples.

Results

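The genes examined here build ribosomes. They are 45 genes of ribosome biogenesis and the nucleolus, the compartment of the nucleus in which ribosomal RNA is made, chosen by symbol for their roles. Of these, 42 had a row among the 14243 rows of the table, and all 42 were measured highly enough to be tested. Dkc1, Rrp12 and Tsr1 were not analysed here. Ubtf had 2 rows and is described by the row with the higher mean.

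The sequenced RNA came from the tibialis anterior (TA), a muscle that lifts the foot, of male Fischer 344 rats aged 23 ± 1 months. In 9 rats an implanted pump delivered tetrodotoxin (TTX), a blocker of voltage-gated sodium channels, to the common peroneal nerve of the left leg, which silenced the nerve and left the muscle inactive. The left TA was taken from 3 rats after 6 to 7 days of TTX (atrophy), from 3 other rats after the same TTX period and 9 further days without TTX (recovery), and from 3 more after both of these and a second TTX pump for 5 to 6 days (repeated atrophy). The untreated right TA of these 9 rats served as control, and 3 sham-operated rats, 1 for each time point, gave both limbs, for 24 samples in all. Every rat was aged and had undergone surgery, so no limb of a young or unoperated animal entered, and each control limb belonged to an animal whose other leg had received TTX, which in the 3 recovery animals had ended 9 days earlier. Values are CPM, the reads on a gene per 1000000 reads of a limb, so fewer cells of a type and less RNA per cell cannot be told apart in them.

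RNA polymerase I transcribes the ribosomal RNA precursor in the nucleolus, with UBTF, RRN3 and the SL1 complex as its initiation factors, and MYC is a well-known activator of this transcription and of many of the genes described here. Small nucleolar ribonucleoproteins (snoRNPs) then modify the precursor, the UTP proteins and their partners shape the small ribosomal subunit, and PES1, BOP1, WDR12 and other factors shape the large one. In skeletal muscle, the making of ribosomes sets much of the capacity for protein synthesis and is best known for its increase in muscle that grows under load.

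Depth inferred from the smallest step between values was 18.9 to 30.9 in units of 1e6 reads per limb (median 26.1). The paper reports a higher read total for its rat samples, so the inferred unit may not be a single sequenced read. Fibre genes of the TA (10 genes, among them Ckm, Acta1 and Myh4) summed to between 84975 and 279499 CPM over the 24 limbs, so each limb was fibre-rich muscle. The left limb of atrophy animal 2 stood apart from the other atrophy limbs, with a fibre sum of 218861 CPM against 84975 and 104578 CPM. Its own untreated right limb had 206843 CPM. How fully the nerve of this animal was silenced was not tested. Among the control limbs, the right limb of atrophy animal 3 held the highest value for 34 of the 42 genes. The share of all rows in which it did so is not given here. In the sham group, both limbs of animal 3 were high. Counts of genes called are given with and without these animals. All rows together also shifted with TTX. The median log2 fold change over all 14031 rows tested was 0.22 after atrophy and 0.20 after repeated atrophy, against 0.02 after recovery. Rescaling each limb by a trimmed mean of log ratios brought these medians to 0.00, -0.01 and 0.01, and rescaled counts of the 42 genes and of each role stand beside those from the deposited values.

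Of the 42 genes, 27 were higher than control after atrophy and 35 after repeated atrophy, and recovery gave 2 lower calls. Rescaled, these counts were 9, 15 and 3, and in a fit that compares limbs within a rat they were 0, 30 and 0 (limma, 24 higher after atrophy and 3 lower after recovery at an unadjusted p under 0.05). A gene passed when it changed at least 1.2-fold with a Benjamini-Hochberg adjusted p, over all rows, of at most 0.05 (limma on log2(CPM + 1)). After atrophy, 27 of the 42 genes were higher than control and 0 were lower, where 20.3% of all rows were higher and 2.33% lower. After repeated atrophy, 35 of 42 were higher and 0 lower, against 28.1% and 6.24% of all rows. The median log2 fold change of the 42 genes was 0.76 after atrophy and 0.81 after repeated atrophy. After recovery it was -0.15, and 0 genes were higher and 2 lower (4.4% and 3.33% of all rows), with 2 and 3 genes at an unadjusted p under 0.05 in these directions. The direction after recovery depended on the pairing of limbs. In a fit with a block for each animal, which compares limbs within a rat, the median was 0.23, and 32 of 42 values lay above 0 where 13 had, with 0 genes called either way (limma, 6 higher and 3 lower at an unadjusted p under 0.05).

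**Figure D1:**
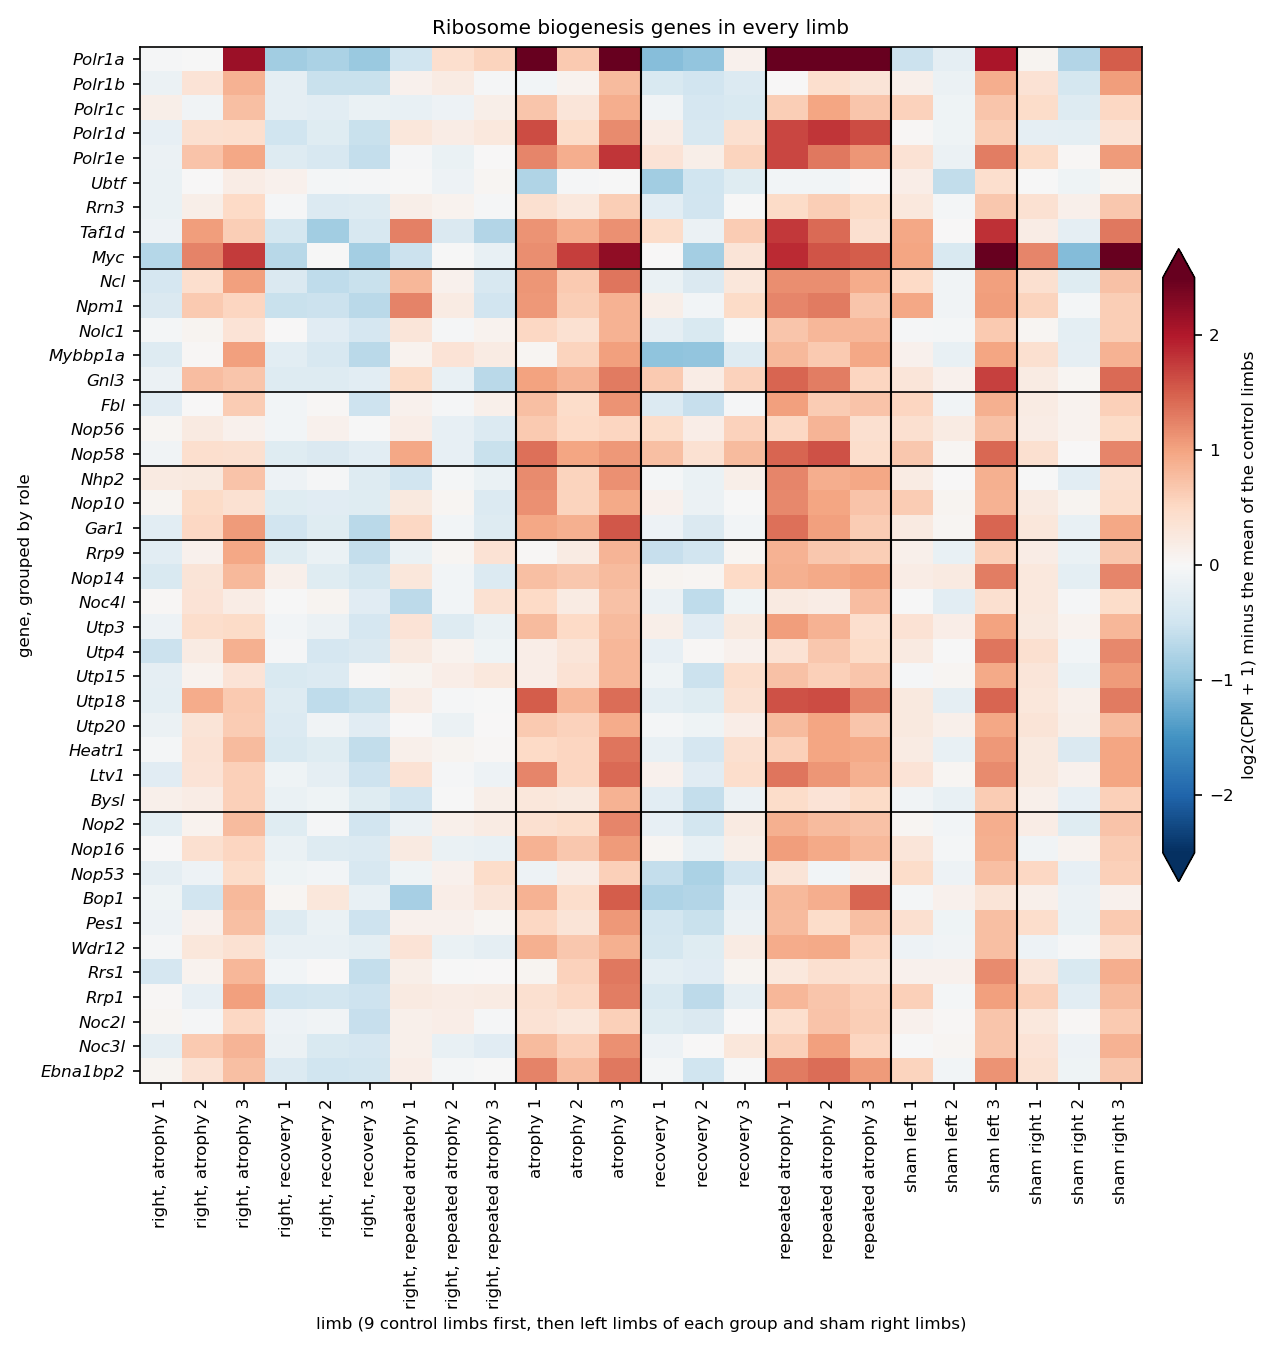
Each row is a gene, ordered by role, and each column a limb; colour gives log2(CPM + 1) minus the mean of the 9 control limbs, and arrows on the colour bar mark values past its ends. The atrophy and repeated atrophy limbs are red for most genes, as are the right limb of atrophy animal 3 and both limbs of sham animal 3, whereas the recovery limbs are pale or blue for most.

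Relative to the shift of all rows, fewer genes passed. Rescaled, 9 of 42 were higher after atrophy and 1 lower (4.73% and 4.95% of all rows), 15 higher and 0 lower after repeated atrophy (13.1% and 12.1%), and 0 higher and 3 lower after recovery (6.02% and 6.04%). The rescaled medians of the 42 genes were 0.41, 0.43 and -0.18 in the same order. The 9 genes higher after atrophy on that scale were Polr1a, Polr1d, Polr1e, Myc, Nhp2, Utp18, Ltv1, Nop16 and Ebna1bp2. After repeated atrophy the 15 were these 9 with Nolc1, Nop58, Nop10, Nop14, Utp20 and Wdr12.

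The count after atrophy rested on atrophy animal 1, and it did not hold with limbs paired. With the animal block, 0 of the 27 genes passed after atrophy, with adjusted p from 0.151 (Bop1, Ebna1bp2 and Polr1a) to 0.364 (Noc3l). In that fit 0% of all rows were called higher, so the loss was not particular to these genes. With both limbs of atrophy animal 1 left out, 0 genes passed, and 31 and 22 passed without animals 2 and 3. For these and all later omissions of animals or limbs, the share of all rows called is not given here. The changes in count are thus not shown to be particular to these genes. Without repeated atrophy animal 2, 16 genes were higher after repeated atrophy, and 25 without animal 1 or animal 3. Leaving out the right limb of atrophy animal 3 alone gave 36 after atrophy and 37 after repeated atrophy. In 10 genes all 3 atrophy limbs lay above all 9 control limbs (4.75% of all rows did so), and in 0 genes below them (0.52%). After repeated atrophy all limbs lay above control in 15 genes (16.5% of all rows) and below in 0 (3.87%), and after recovery in 0 above (5.57%) and 2 below (4.84%).

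**Figure D2:**
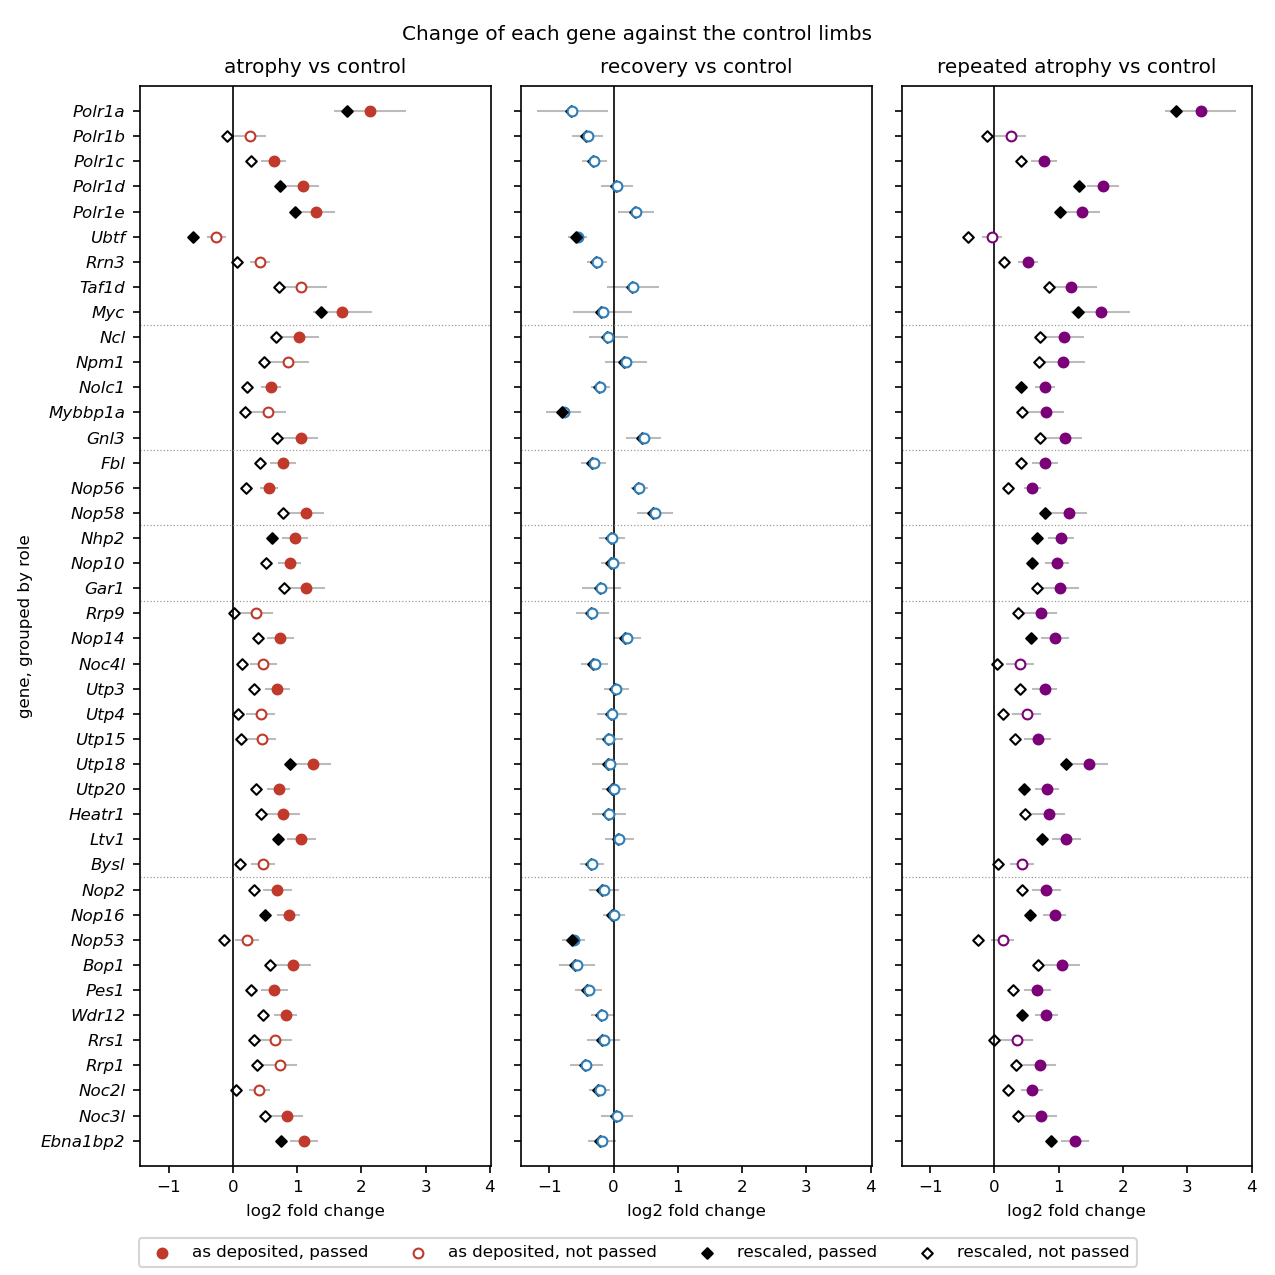
Log2 fold change of each gene against the 9 control limbs, for 3 limbs per group; circles are values as deposited with SE bars, diamonds are rescaled values, and filled symbols passed the test. After atrophy and repeated atrophy nearly all circles lie to the right of 0 and Polr1a lies farthest, and after recovery the filled circles, partly hidden by diamonds, are Ubtf and Nop53.

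Among the 9 genes of polymerase I and its controls, 5 were higher after atrophy, 7 after repeated atrophy and 0 after recovery, where 1 was lower. Rescaled, 4 were higher and 1 lower after atrophy, 4 higher after repeated atrophy and 1 lower after recovery. For this role and those below, 20.3%, 4.4% and 28.1% of all rows were higher after atrophy, recovery and repeated atrophy (rescaled 4.73%, 6.02% and 13.1%). In the same order, 2.33%, 3.33% and 6.24% of all rows were lower (rescaled 4.95%, 6.04% and 12.1%). The counts of single roles were not tested against these shares. Polr1a, which encodes the largest, catalytic subunit of the enzyme, had the largest change of all 42 genes. Polr1a spanned 26.1 to 226 CPM (median 49.6 CPM) in the control limbs and stood at 345, 80.00 and 411 CPM in the atrophy limbs, 23.7, 25.2 and 54.8 CPM in the recovery limbs and 293, 587 and 625 CPM in the repeated atrophy limbs. All 3 repeated atrophy limbs exceeded every control limb, while atrophy animal 2 lay inside the control range, and 2 of the 3 recovery limbs lay below it. The log2 fold change was 2.13 ± 0.56, adjusted p = 0.0138 after atrophy and 3.21 ± 0.56, adjusted p = 0.000438 after repeated atrophy (SE after each ±, limma), with rescaled values of 1.77 (adjusted p = 0.0326) and 2.83 (adjusted p = 0.000528). Within animals (the blocked fit) the atrophy value was 1.43 (adjusted p = 0.151). After recovery it was -0.64 ± 0.56, adjusted p = 0.505, and 0.22 (adjusted p = 0.78) when blocked. The rat Polr1a row lies on chromosome 4 at 103950051 to 104014015 (rn7, plus strand) and shares no coordinates with another row.

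The second largest subunit, encoded by Polr1b, forms the active centre together with POLR1A, but Polr1b did not pass the test. For Polr1b, the left limbs were at 28.8, 32.3 and 53.00 CPM with atrophy, at 23.1, 21.4 and 23.6 CPM on recovery and at 30.6, 41.1 and 38.1 CPM with repeated atrophy, against 20.4 to 55.9 CPM (median 29.6 CPM) in control. The groups overlapped throughout, and Polr1b did not pass in any of these comparisons (atrophy log2 fold change 0.27 ± 0.24, adjusted p = 0.465; repeated atrophy log2 fold change 0.25 ± 0.24, adjusted p = 0.47). Rescaled, its values were -0.09 and -0.12, so its direction depends on the scale. Per kilobase of transcript, mean Polr1a stood at 10.8 and mean Polr1b at 8.44 CPM per kilobase in control, and at 83.5 and 9.73 after repeated atrophy. Without the right limb of atrophy animal 3 the control means were 7.50 and 7.64, so their order in control rests on that limb. The difference between both genes was not tested.

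Other subunits rose as well. Polr1d, a small subunit shared with RNA polymerase III, was chosen for description after its values were seen, as were Polr1e, Mybbp1a, Bop1, Ltv1, Nop16 and Nop56 below. Control limbs held Polr1d at 16.6 to 33.7 CPM (median 28.8 CPM), whereas the atrophy limbs held 80.01, 35.04 and 58.04 CPM, the recovery limbs 28.5, 18.8 and 33.3 CPM and the repeated atrophy limbs 81.6, 89.1 and 79.7 CPM. Every limb of both inactive groups exceeded every control limb, atrophy animal 2 only narrowly. The log2 fold changes were 1.09 ± 0.25, adjusted p = 0.00917 after atrophy and 1.69 ± 0.25, adjusted p = 0.000157 after repeated atrophy. Blocked, the atrophy values of Polr1d and Polr1e were 0.89 (adjusted p = 0.184) and 0.79 (adjusted p = 0.181). Polr1e, whose protein forms with POLR1G a heterodimer particular to polymerase I, rose by 1.30 ± 0.29, adjusted p = 0.00824 and 1.36 ± 0.29, adjusted p = 0.00157 on the log2 scale, and Polr1c, shared with polymerase III like Polr1d, by 0.63 and 0.77 (adjusted p = 0.0289 and 0.00568). Polr1c did not pass once rescaled (adjusted p = 0.279 and 0.073), and after atrophy its blocked value was 0.36 (adjusted p = 0.309).

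UBTF, a factor that helps to load polymerase I, binds along the ribosomal DNA and keeps it open. Ubtf spanned 45.8 to 59.00 CPM (median 51.3 CPM) in the control limbs and stood at 30.2, 50.4 and 51.1 CPM in the atrophy limbs, 27.7, 36.1 and 41.2 CPM in the recovery limbs and 49.2, 49.1 and 52.00 CPM in the repeated atrophy limbs. All 3 recovery limbs and atrophy animal 1 lay below every control limb, and the values after repeated atrophy lay within control. Ubtf was lower after recovery (log2 fold change -0.56 ± 0.15, adjusted p = 0.0288) and did not pass after atrophy (-0.26, adjusted p = 0.212) or repeated atrophy (-0.04, adjusted p = 0.88). Rescaled, it was also lower after atrophy (-0.62, adjusted p = 0.0277), but not with block and rescaling together (-0.53, adjusted p = 0.242). The second Ubtf row, a longer transcript model at the same position, had -0.24 after recovery (adjusted p = 0.409). After atrophy it had 0.13 as deposited (adjusted p = 0.645) and -0.23 rescaled (adjusted p = 0.3), so with single rows both falls depend on the row. In the second row atrophy animal 1 stood at 60.5 CPM, within the control limbs. With both rows summed, Ubtf was still called lower after recovery in the fit without the block. The first row, fitted with the animal as a block, did not pass after recovery (adjusted p = 0.161).

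Rrn3 encodes the factor that makes polymerase I ready to initiate. For Rrn3, the left limbs were at 97.4, 88.6 and 113 CPM with atrophy, at 61.2, 52.6 and 73.1 CPM on recovery and at 103, 113 and 104 CPM with repeated atrophy, against 58.5 to 105 CPM (median 72.7 CPM) in control. It passed after repeated atrophy (log2 fold change 0.52 ± 0.16, adjusted p = 0.0147) and not after atrophy (0.42, adjusted p = 0.058). Rescaled, its change after repeated atrophy was 0.14 (adjusted p = 0.42), and 0.46 in the animal-blocked fit (adjusted p = 0.053). Taf1d, a subunit of SL1, was higher after repeated atrophy (1.19, adjusted p = 0.0288) but not once rescaled (adjusted p = 0.129).

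Myc, the transcription factor that drives ribosome production, was low in most control limbs. Myc spanned 4.29 to 31.1 CPM (median 7.45 CPM) in the control limbs and stood at 20.3, 30.9 and 43.6 CPM in the atrophy limbs, 8.60, 4.34 and 10.9 CPM in the recovery limbs and 33.7, 27.6 and 26.3 CPM in the repeated atrophy limbs. The inactive limbs each lay above at least 7 of the 9 control limbs, but the control limb of atrophy animal 3 overlapped with them. Its rise was 1.70 ± 0.45, adjusted p = 0.0153 after atrophy and 1.65 ± 0.45, adjusted p = 0.00921 after repeated atrophy on the log2 scale, and both held once rescaled (adjusted p = 0.049 and 0.0314). With the animal block Myc had 0.95 (adjusted p = 0.233) after atrophy. After recovery Myc stood at -0.17 (adjusted p = 0.858), and blocked at 0.35 (adjusted p = 0.653). Both limbs of sham animal 3 held more Myc than any TTX limb, at 72.3 and 58.4 CPM, against 3.49 to 21.3 CPM in the other sham limbs.

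**Figure D3:**
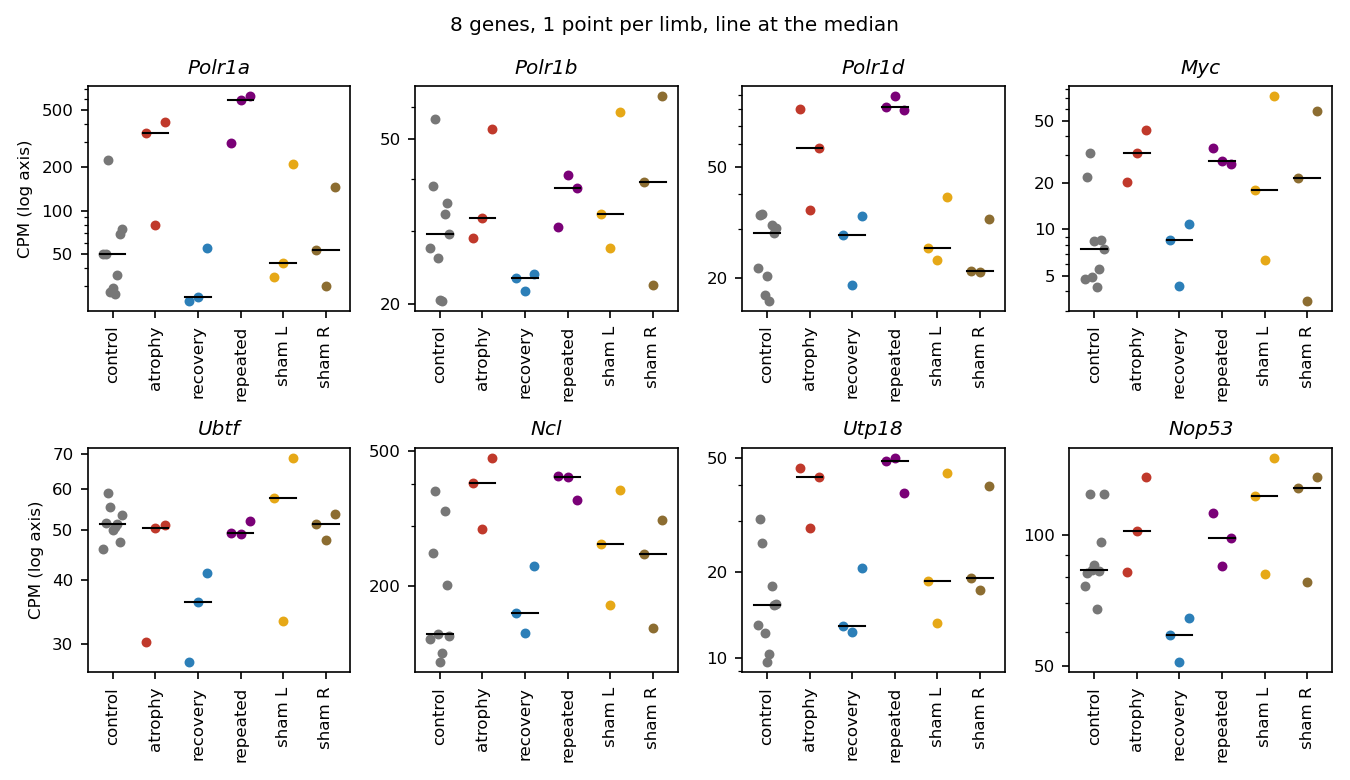
CPM of 8 genes on log axes, 1 point per limb with a line at the group median (9 control limbs, 3 limbs in each other group). Polr1a, Polr1d and Utp18 lie above control in all 3 repeated atrophy limbs, Ubtf and Nop53 lie below it in the recovery limbs, and the high sham point in each panel is sham animal 3.

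The promoters were searched for the sequence that MYC binds with its partner MAX. Promoters of RefSeq genes (GRCr8, 250 bases before to 50 after the start) were matched by symbol for 39 of the 42 genes and searched for CACGTG, which reads the same on both strands. It was present in 13 of 39 (33.3%), against 6.42% of all 33469 promoters and 8.63% of the 11046 promoters whose symbol was in the table, and 28 of 114 for the related pathway genes described further on (24.6%). Among the promoters of genes higher after repeated atrophy it was in 11 of 33, and among those not called in 2 of 6, so its share was 33.3% in both. Rescaled, it was in 4 of 14 and in 9 of 25. The sequences are shown for 3 genes with a match and for Polr1a, the gene with the largest change, which has none. Each runs 5′ to 3′ over the 250 bases before the start, with CACGTG in capitals, and none of the 3 motif positions was measured for binding here.
Utp18 (chr10:79335758-79336007, minus strand): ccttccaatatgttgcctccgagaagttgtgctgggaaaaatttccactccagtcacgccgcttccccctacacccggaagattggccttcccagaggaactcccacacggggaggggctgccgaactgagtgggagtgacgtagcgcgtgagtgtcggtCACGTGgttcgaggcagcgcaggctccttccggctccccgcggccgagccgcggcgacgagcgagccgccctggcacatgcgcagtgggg
Ltv1 (chr1:9398558-9398807, minus strand): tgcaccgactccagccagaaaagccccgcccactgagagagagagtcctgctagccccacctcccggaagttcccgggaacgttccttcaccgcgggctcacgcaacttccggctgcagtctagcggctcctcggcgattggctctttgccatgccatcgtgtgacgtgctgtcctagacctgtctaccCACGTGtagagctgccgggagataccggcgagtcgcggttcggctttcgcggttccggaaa
Gnl3 (chr16:6219783-6220032, minus strand): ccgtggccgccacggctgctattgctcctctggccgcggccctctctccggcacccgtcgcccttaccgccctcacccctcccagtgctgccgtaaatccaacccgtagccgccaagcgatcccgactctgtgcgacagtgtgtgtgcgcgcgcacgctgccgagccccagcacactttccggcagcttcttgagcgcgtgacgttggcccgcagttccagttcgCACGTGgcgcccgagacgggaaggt
Polr1a (chr4:105508055-105508304, plus strand): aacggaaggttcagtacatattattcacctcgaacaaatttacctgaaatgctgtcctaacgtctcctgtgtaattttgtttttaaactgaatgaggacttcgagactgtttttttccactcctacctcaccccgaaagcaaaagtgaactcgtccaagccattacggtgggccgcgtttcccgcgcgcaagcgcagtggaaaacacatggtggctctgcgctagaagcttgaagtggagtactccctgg
Utp18 has another match that begins 3 bases after its start, outside the stretch shown.

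Of the 5 abundant nucleolar proteins, 3 passed after atrophy, 5 after repeated atrophy and 0 after recovery, the last with 1 gene lower at an unadjusted p under 0.05. Rescaled, 0 passed after atrophy and 1 after repeated atrophy (limma, with 2 and 4 at an unadjusted p under 0.05). Nucleolin, encoded by Ncl, binds ribosomal RNA and its genes. Control limbs held Ncl at 119.6 to 381 CPM (median 145 CPM), whereas the atrophy limbs held 403, 294 and 476 CPM, the recovery limbs 166, 145 and 229 CPM and the repeated atrophy limbs 422, 418 and 358 CPM. In the inactive groups, 4 of the 6 limbs exceeded every control limb, and the 2 that did not were atrophy animal 2 and repeated atrophy animal 3. Its log2 fold change was 1.03 ± 0.31, adjusted p = 0.0243 after atrophy and 1.09 ± 0.31, adjusted p = 0.0108 after repeated atrophy, and it missed the threshold once rescaled (adjusted p = 0.124 and 0.0665). Its blocked atrophy value was 0.69 (adjusted p = 0.215). Nucleophosmin (Npm1), a chaperone of ribosome assembly and export, followed with a wider spread. Npm1 spanned 64.3 to 244 CPM (median 80.3 CPM) in the control limbs and stood at 220.1, 158 and 188 CPM in the atrophy limbs, 115, 98.8 and 143 CPM in the recovery limbs and 242, 256 and 167 CPM in the repeated atrophy limbs. It passed after repeated atrophy only on the deposited scale (log2 fold change 1.07 ± 0.33, adjusted p = 0.017; rescaled, adjusted p = 0.109; blocked, adjusted p = 0.0791) and had 0.85 ± 0.33, adjusted p = 0.068 after atrophy.

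Gnl3 encodes nucleostemin, a nucleolar GTPase of proliferating and progenitor cells. For Gnl3, the left limbs were at 66.9, 59.9 and 81.5 CPM with atrophy, at 51.8, 37.1 and 49.2 CPM on recovery and at 91.6, 80.4 and 47.9 CPM with repeated atrophy, against 20.1 to 56.1 CPM (median 28.6 CPM) in control. All atrophy limbs lay above control, whereas repeated atrophy animal 3 overlapped with it. Gnl3 rose by 1.05 ± 0.27, adjusted p = 0.0134 after atrophy and 1.09 ± 0.27, adjusted p = 0.00512 after repeated atrophy on the log2 scale, with rescaled adjusted p of 0.0948 and 0.0508, and its atrophy value was 0.62 (adjusted p = 0.181) when blocked. Nolc1, a chaperone of snoRNPs, passed after repeated atrophy on both scales (0.79, adjusted p = 0.00089, and 0.41, adjusted p = 0.015). Mybbp1a, a repressor of several transcription factors that also takes part in ribosomal RNA synthesis, stood at 60.8, 62.4 and 98.2 CPM after recovery against 77.1 to 252 CPM (median 126 CPM) in control. Its value then was -0.77 (adjusted p = 0.0856) as deposited. It passed once rescaled (-0.80, adjusted p = 0.0403) but not with block and rescaling together (-0.45, adjusted p = 0.238). Blocked, it did not pass after repeated atrophy either (adjusted p = 0.0562).

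Box C/D particles methylate ribosomal RNA, and all 3 of their genes passed after atrophy and after repeated atrophy, with 0 after recovery and 2 then higher at an unadjusted p under 0.05. Rescaled, 0 of 3 passed after atrophy (limma, 2 at an unadjusted p under 0.05) and 1 after repeated atrophy. Fbl encodes fibrillarin, the methyltransferase. Control limbs held Fbl at 15.3 to 35.6 CPM (median 22.5 CPM), whereas the atrophy limbs held 38.5, 31.05 and 50.2 CPM, the recovery limbs 17.6, 14.7 and 21.98 CPM and the repeated atrophy limbs 46.6, 35.3 and 37.2 CPM. Only atrophy animal 2 and repeated atrophy animal 2 fell within the range of the control limbs. Fbl rose by 0.78 ± 0.20, adjusted p = 0.0126 and 0.79 ± 0.20, adjusted p = 0.00536 on the log2 scale, with rescaled adjusted p of 0.112 and 0.0757, and its blocked atrophy value was 0.66 (adjusted p = 0.184). Its scaffold partner Nop58 was at 66.96, 50.7 and 54.9 CPM after atrophy and 71.2, 78.5 and 34.7 CPM after repeated atrophy, against 16.9 to 50.5 CPM (median 21.6 CPM) in control. Repeated atrophy animal 3 was the only one of these 6 limbs within the control range. Nop58 passed in both comparisons (log2 fold change 1.15 ± 0.28, adjusted p = 0.0108; repeated atrophy 1.17 ± 0.28, adjusted p = 0.00391) and stayed higher after rescaling in the second (adjusted p = 0.042). Blocked, Nop58 had 0.91 (adjusted p = 0.159) after atrophy.

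Recovery values of the C/D genes Nop58 and Nop56 lay above their control medians, and 2 of the 3 Nop56 limbs above every control limb. Nop58 was at 43.1, 33.2 and 44.4 CPM and Nop56 at 56.1, 45.8 and 61.4 CPM, with control medians of 21.6 and 41.99 CPM. These differences did not pass the test (Nop58 log2 fold change 0.64 ± 0.28, adjusted p = 0.16; Nop56 0.40 ± 0.14, adjusted p = 0.0755).

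Box H/ACA particles convert uridine of ribosomal RNA to pseudouridine, and their genes Nhp2, Nop10 and Gar1 all passed after atrophy and after repeated atrophy, with 0 of 3 after recovery at either the adjusted or the unadjusted threshold. Rescaled, 1 passed after atrophy and 2 after repeated atrophy. Nhp2 spanned 14.99 to 35.7 CPM (median 20.4 CPM) in the control limbs and stood at 49.7, 31.9 and 48.02 CPM in the atrophy limbs, 20.4, 18.9 and 23.7 CPM in the recovery limbs and 50.8, 41.03 and 42.7 CPM in the repeated atrophy limbs. Atrophy animal 2 was the only limb of these 2 groups that overlapped with control. Nhp2 held once rescaled after both periods (log2 fold change 0.96 ± 0.20, adjusted p = 0.00725; repeated atrophy 1.04 ± 0.20, adjusted p = 0.000998; rescaled adjusted p = 0.0329 and 0.00805). For Gar1, the left limbs were at 20.9, 19.6 and 32.05 CPM with atrophy, at 9.26, 7.65 and 9.63 CPM on recovery and at 28.2, 21.7 and 16.4 CPM with repeated atrophy, against 6.05 to 22.4 CPM (median 8.32 CPM) in control. Gar1, whose protein helps to release the modified RNA, was the member of this particle with the largest change after atrophy (log2 fold change 1.14 ± 0.30, adjusted p = 0.0147), and had 1.01 ± 0.30, adjusted p = 0.0143 after repeated atrophy. It did not pass after rescaling (adjusted p = 0.0748 and 0.0905), whereas Nop10 passed then after repeated atrophy (adjusted p = 0.014). The blocked atrophy values of Nhp2 and Gar1 were 0.57 (adjusted p = 0.196) and 0.70 (adjusted p = 0.178).

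Of 11 small subunit factors measured, 6 were higher after atrophy, 8 after repeated atrophy and 0 after recovery, with 0 at an unadjusted p under 0.05 in the last. Rescaled, Utp18 and Ltv1 (2) passed after atrophy and 4 genes after repeated atrophy. Utp18, a protein of the small subunit processome that helps to guide the nuclear exosome to the precursor, changed most in this role. Control limbs held Utp18 at 9.66 to 30.6 CPM (median 15.3 CPM), whereas the atrophy limbs held 45.9, 28.5 and 42.7 CPM, the recovery limbs 12.9, 12.3 and 20.6 CPM and the repeated atrophy limbs 48.6, 50.01 and 37.7 CPM. Both inactive groups lay above all but 1 control limb, and the repeated atrophy limbs above all 9. Its log2 fold change was 1.25 ± 0.28, adjusted p = 0.00886 after atrophy and 1.48 ± 0.28, adjusted p = 0.000813 after repeated atrophy, and 0.90 and 1.11 rescaled (adjusted p = 0.0256 and 0.00201). Ltv1, needed to export and finish the small subunit, rose by 1.07 ± 0.23, adjusted p = 0.00754 and 1.12 ± 0.23, adjusted p = 0.0013 and passed on both scales. Blocked, the atrophy values were 0.80 (adjusted p = 0.211) for Utp18 and 0.85 (adjusted p = 0.169) for Ltv1.

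The remaining genes of this role changed less. Nop14 and Utp20 passed after repeated atrophy on both scales (0.95 and 0.82 as deposited, adjusted p = 0.00277 and 0.00227). Utp3, Utp15, Heatr1 and Rrp9 passed then on the deposited scale alone, with log2 fold changes of 0.67 to 0.84, and of these Utp15 and Rrp9 did not pass when blocked (adjusted p = 0.0889 and 0.0712). Heatr1 shares coordinates with Lgals8 on the other strand, which went from a mean of 43.5 CPM in control to 98.4 CPM after repeated atrophy, while Heatr1 went from 11.8 to 21.2 CPM, so its counts are uncertain where strand was not used in counting. The paper names a directional library kit, but whether counting used the strand is not given. Noc4l, Utp4 and Bysl did not pass after either period, at 0.39, 0.50 and 0.43 after repeated atrophy (adjusted p = 0.177, 0.104 and 0.0879). UTP4 and UTP15 belong, with HEATR1, to the part of the processome that meets polymerase I, and UTP20 to its later stages.

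Of 11 large subunit factors measured, 7 were higher after atrophy and 9 after repeated atrophy, and after recovery 0 were higher, at either threshold, and 1 was lower. Rescaled, 2 were higher after atrophy, 3 after repeated atrophy and 1 lower after recovery. Noc2l, higher after repeated atrophy as deposited, did not pass when blocked (adjusted p = 0.0679). Ebna1bp2, which takes part in processing the precursor of the large subunit RNA, had the largest rise in this role. Ebna1bp2 spanned 24.95 to 60.7 CPM (median 35.5 CPM) in the control limbs and stood at 85.5, 61.01 and 89.99 CPM in the atrophy limbs, 34.2, 24.9 and 35.3 CPM in the recovery limbs and 88.9, 95.5 and 75.00 CPM in the repeated atrophy limbs. No limb of either inactive group overlapped with control, although atrophy animal 2 exceeded the highest control limb by less than 1 CPM. Ebna1bp2 changed by 1.11 ± 0.22, adjusted p = 0.00651 after atrophy and 1.25 ± 0.22, adjusted p = 0.000479 after repeated atrophy on the log2 scale, and passed rescaled (adjusted p = 0.018 and 0.00142). Nop16 also passed on both scales after both periods (0.87 and 0.94, adjusted p = 0.00662 and 0.000728). Blocked, the atrophy values were 0.71 (adjusted p = 0.151) for Ebna1bp2 and 0.55 (adjusted p = 0.167) for Nop16.

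PES1, BOP1 and WDR12 form the PeBoW complex, which is needed for processing of the large subunit RNA. All 3 genes were higher in both periods as deposited, with log2 fold changes after repeated atrophy of 0.67 for Pes1, 1.06 for Bop1 and 0.81 for Wdr12 (adjusted p = 0.0191, 0.00676 and 0.00206). Rescaled, Wdr12 passed (adjusted p = 0.0472), Bop1 was just past the limit (adjusted p = 0.0503) and Pes1 did not pass (adjusted p = 0.242). Blocked, the atrophy values were 0.40 (adjusted p = 0.248) for Pes1, 0.87 (adjusted p = 0.151) for Bop1 and 0.61 (adjusted p = 0.178) for Wdr12. Bop1 shares coordinates with Scx on the other strand, and Scx went from a mean of 10.7 CPM in control to 46.4 CPM after repeated atrophy, so the counts of Bop1 carry the same doubt as those of Heatr1.

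Nop53, a factor that brings the exosome to the large subunit and is also known as a regulator of p53, did not pass the test in the inactive limbs. For Nop53, the left limbs were at 82.3, 102 and 136 CPM with atrophy, at 59.01, 51.2 and 64.4 CPM on recovery and at 113, 85.2 and 98.4 CPM with repeated atrophy, against 67.7 to 124 CPM (median 83.1 CPM) in control. The recovery limbs lay below every control limb, and both inactive groups overlapped with control, although atrophy animal 3 exceeded it. It was lower after recovery (log2 fold change -0.62 ± 0.18, adjusted p = 0.0439; rescaled -0.65, adjusted p = 0.0231) and did not pass after atrophy (0.22, adjusted p = 0.412) or repeated atrophy (0.13, adjusted p = 0.638). Blocked by animal, its adjusted p after recovery was 0.256. The 2 genes lower after recovery, Ubtf and Nop53, became 0 without recovery animal 1, recovery animal 2 or repeated atrophy animal 2, and 1 without recovery animal 3, repeated atrophy animal 3 or the right limb of atrophy animal 3.

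Treated limbs were also compared with each other. Between recovery and atrophy, 25 of the 42 genes were lower and 0 higher (14.5% and 3.34% of all rows), with 0 at an unadjusted p under 0.05 in the second direction, and rescaled 9 lower and 0 higher (5.2% and 5.48%). With the animal block 0 of the 42 passed (limma, 4 lower at an unadjusted p under 0.05), with -1.21 (adjusted p = 0.612) for Polr1a, -0.60 (adjusted p = 0.803) for Myc and -1.47 (adjusted p = 0.394) for Bop1. All 42 log2 fold changes were below 0 as deposited without the block, the largest being -2.77 ± 0.68 for Polr1a (adjusted p = 0.0138), -1.88 for Myc (adjusted p = 0.0283) and -1.51 for Bop1 (adjusted p = 0.0102). The count was 11 without atrophy animal 1, 16 without atrophy animal 3, and 1 without recovery animal 1 or recovery animal 2.

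Between repeated atrophy and recovery, 32 genes were higher and 0 lower (21% and 6.29% of all rows), and rescaled 17 and 0 (10.5% and 11.1%). With the animal block 0 passed (limma, 18 higher at an unadjusted p under 0.05), and Polr1a had 2.83 (adjusted p = 0.0741). Without the block Polr1a led with 3.85 (adjusted p = 0.00154), ahead of Myc at 1.82 and Polr1d at 1.64 (adjusted p = 0.0219 and 0.00192). Without recovery animal 1, recovery animal 2 or repeated atrophy animal 2, the count was 19, 15 and 19.

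The second period of TTX was not told apart from the first. Between repeated atrophy and atrophy, limma called 0 of the 42 genes in either direction, and 0 were at an unadjusted p under 0.05 (0.0143% of all rows were higher and 0.0214% lower). The 42 log2 fold changes ran from -0.32 (Rrs1) to 1.08 (Polr1a) with a median of 0.07. Polr1a was at 345, 80.00 and 411 CPM after atrophy and 293, 587 and 625 CPM after repeated atrophy, a difference of 1.08 ± 0.68 (SE) on the log2 scale (adjusted p = 0.92), and Polr1d differed by 0.60 ± 0.31 (adjusted p = 0.838). With 3 limbs in each group and these errors, differences of this size cannot be separated from 0.

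Each left limb can also be read against its own right limb. The median over the 42 genes of the left minus the right limb, in log2(CPM + 1), was 0.71, 0.99 and 0.77 in the 3 repeated atrophy animals, where the median over all rows was 0.08, 0.29 and 0.25. It was 0.88, 0.26 and 0.45 in the 3 atrophy animals (all rows 0.35, 0.00 and 0.17). Atrophy animals 2 and 3 had smaller differences between their limbs than any repeated atrophy animal. In the recovery animals it was 0.09, -0.12 and 0.54 (all rows 0.02, 0.00 and 0.22), and recovery animal 3, with 38 of 42 genes higher on the left, differed from the other 2 animals of its group. In the sham animals it was -0.05, 0.06 and 0.21 (all rows -0.02, 0.10 and -0.03), with 36 of 42 genes higher on the left in sham animal 3. Rescaled, the medians were 0.48, 0.50 and 0.38 in the repeated atrophy animals, 0.34, 0.29 and 0.18 in the atrophy animals, 0.05, -0.13 and 0.21 in the recovery animals and -0.01, -0.10 and 0.26 in the sham animals. On that scale sham animal 3, with 37 of 42 genes higher on the left, exceeded atrophy animal 3, with 30 of 42.

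**Figure D4:**
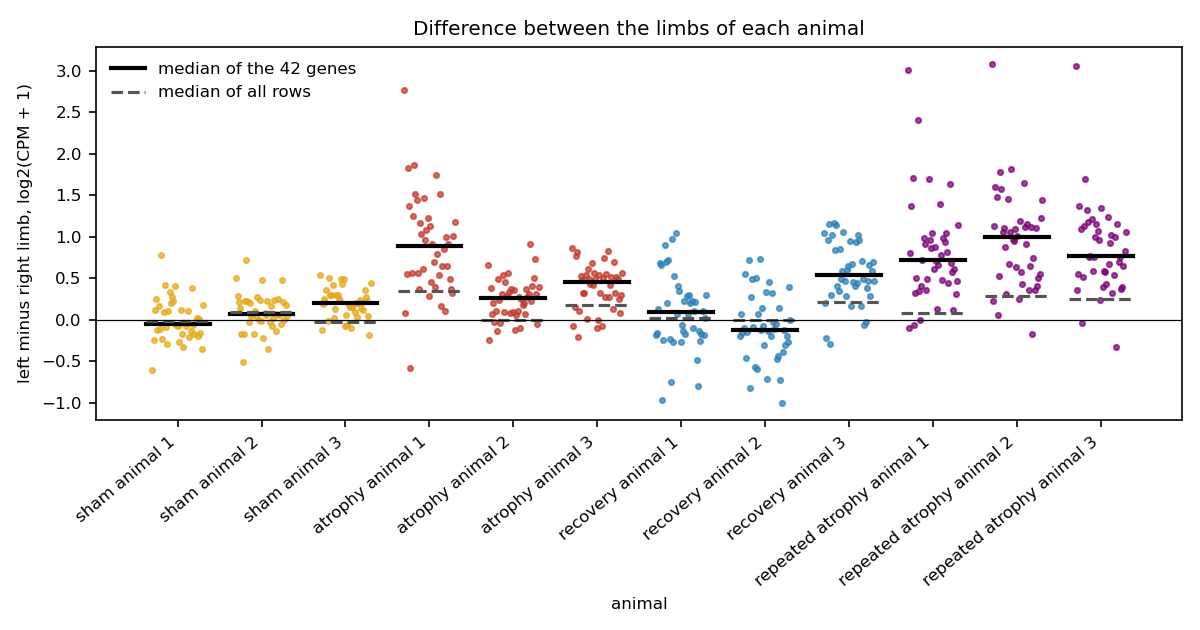
Left minus right limb in log2(CPM + 1) for each of the 42 genes (points) in each of the 12 animals, with the median of the 42 genes (solid line) and of all rows (dashed line). The 3 repeated atrophy animals have medians of 0.71 to 0.99, and the 3 sham animals -0.05 to 0.21.

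Fitted with the animal as a block, 30 of 42 genes were higher after repeated atrophy (21.5% of all rows), and 18 with rescaling (11%). After atrophy 0 passed, with 24 higher at an unadjusted p under 0.05, and 0% of all rows were called higher. The block left 0 genes lower after recovery and 0 lower between recovery and atrophy (0.0214% and 0.0143% of all rows), with 3 and 4 at an unadjusted p under 0.05, and 0 higher between repeated atrophy and recovery (0.0214%), with 18 at that threshold. The atrophy values of Polr1a and Myc went from 2.13 and 1.70 to 1.43 and 0.95 with the block. Polr1a kept 3.05 after repeated atrophy in this fit (adjusted p = 0.00228) and Utp18 1.43 (adjusted p = 0.00832).

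The right limbs were not alike at the 3 time points. The 42 genes together summed to 1396, 1915 and 2706 CPM in the right limbs of the atrophy animals, to 1329.5, 1271 and 1146 CPM in those of the recovery animals and to 1976, 1649.6 and 1536 CPM in those of the repeated atrophy animals. The right limbs of the recovery animals held the lowest control value for 2, 6 and 24 genes in animals 1, 2 and 3. On the left, the sums were 2904, 2275 and 3543 CPM for atrophy, 1386, 1206 and 1707 CPM for recovery and, for repeated atrophy, 3239, 3469.9 and 3198 CPM.

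Sham limbs showed no call against control. Between sham left limbs and control, 0 of the 42 genes passed (limma, 0% of all rows in either direction), with 4 higher and 0 lower at an unadjusted p under 0.05. Nop56 came closest (log2 fold change 0.44 ± 0.15, adjusted p = 0.297). Between the left and right sham limbs 0 passed (0% in either direction), with 2 higher and 0 lower at that threshold. The spread among sham animals was large, however. Sham animal 3 held the highest left value for all 42 genes and the highest right value for 41, with sums of 3225 and 2742 CPM, against 1428 to 2016 CPM in the 4 limbs of the other sham animals. Its Polr1a was at 212 CPM on the left and 146 CPM on the right, with 30.1 to 52.9 CPM in the other sham limbs. The sums of sham animal 3 lay within the 2275 to 3543 CPM of the atrophy limbs. Leaving sham animal 3 out gave 0 calls as well.

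Markers of other cells were read beside these genes. Of 6 satellite cell markers, Myf5, Sdc4 and Vcam1 (3) were higher after atrophy and after repeated atrophy, and 1 of the 6 after recovery, where 20.3%, 28.1% and 4.4% of all rows were. Rescaled, 2, 2 and 1 of the 6 were higher, and with the animal block 0, 2 and 0 (limma, with 3, 2 and 2 at an unadjusted p under 0.05). Pax7, the defining marker of quiescent satellite cells, had group means below 1 CPM throughout. The marker sum ranged from 31.3 to 107 CPM in control, 95.0 to 344 CPM in atrophy, 40.4 to 67.3 CPM in recovery and 117 to 194 CPM in repeated atrophy limbs. Sham animal 3 had 300.2 and 248 CPM, and the other sham limbs 39.3 to 59.3 CPM. Of 13 proliferation genes, 2 were higher in atrophy, 3 in recovery and 3 in repeated atrophy limbs, beside 20.3%, 4.4% and 28.1% of all rows. Their sum was 33.0 to 55.3 CPM in control, 55.6 to 145 CPM in atrophy, 58.1 to 67.2 CPM in recovery and 80.6 to 108 CPM in repeated atrophy limbs, so all 9 treated limbs exceeded all 9 control limbs. So did both limbs of sham animals 1 and 3, at 73.2 to 129.6 CPM. Compared within animals, 0 of the 13 passed in atrophy, 0 in recovery and 3 in repeated atrophy limbs (limma, 8, 3 and 4 at an unadjusted p under 0.05). Of the macrophage markers 4 of 10, and of the fibro-adipogenic markers 6 of 8, were higher after recovery, where 4.4% of all rows were. None of either list passed after atrophy or repeated atrophy (limma, 1 macrophage marker higher and 1 fibro-adipogenic marker lower after atrophy at an unadjusted p under 0.05, and 0 after repeated atrophy). Under the animal block 0 of either passed after recovery (limma, 6 and 7 higher at that threshold). Macrophage sums were 412 to 799 CPM in the recovery limbs. Both limbs of sham animal 1 (737 and 647 CPM) and the left limb of sham animal 2 (466 CPM) lay within that range. So did the left limb of atrophy animal 1 (517 CPM) and the highest control limb (419.9 CPM). In that atrophy limb the fibro-adipogenic markers summed to 709 CPM, against 248 to 693 CPM in control. The fibre sum ranged from 206843 to 279499 CPM in control, from 84975 to 218861 CPM in atrophy, from 215291 to 229698 CPM in recovery and from 114048 to 156744 CPM in repeated atrophy limbs, the last all below control. The part of these cells in the changes described here was not tested.

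Related genes of the pathway that were not among the 45 were counted in 6 lists. Of 138 tested, 62 were higher and 0 lower with atrophy, 2 and 2 on recovery, and 88 and 0 with repeated atrophy, where 20.3%, 4.4% and 28.1% of all rows were higher. Rescaled, the counts were 4 and 0, 2 and 11, and 28 and 4, beside 4.73%, 6.02% and 13.1% of all rows higher and 4.95%, 6.04% and 12.1% lower, so the share higher with atrophy was then below that of all rows. With the animal block 0 were higher with atrophy and 0 called on recovery (limma, 30 higher with atrophy, and 24 higher and 4 lower on recovery, at an unadjusted p under 0.05), and 68 were higher and 1 lower with repeated atrophy. Their median log2 fold change was 0.54, -0.05 and 0.60 in these comparisons, with 0.76, -0.15 and 0.81 for the 42 genes. After repeated atrophy, 26 of 34 other small subunit factors were higher, among them the helicase gene Ddx10 (log2 fold change 1.55), and 27 of 40 other large subunit factors, with Sdad1 (1.28) first. Of 13 other polymerase I and SL1 genes, 10 were higher, led by Ddx21 (1.11), a helicase that couples polymerase I transcription to processing. The exosome and RNase MRP list had 14 of 22 higher, with the exosome nuclease gene Dis3 at 1.06.

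RNA polymerase III makes 5S ribosomal RNA and transfer RNAs. Among the 20 genes of its subunits and factors, 9 were higher after repeated atrophy and 4 after atrophy, and 0 lower, beside 28.1% and 20.3% of all rows. Rescaled, 3 were higher and 3 lower after repeated atrophy (13.1% and 12.1% of all rows), the latter being Crcp, Maf1 and Polr3k. The atrophy count and the rescaled counts were thus near the shares of all rows. Maf1, the repressor of polymerase III, was lower after recovery on both scales (-0.87 as deposited), but it was not called with the animal block. Among 9 genes of the MYC network, Max and Mlx, dimerization partners in this network, were higher after both periods, where 20.3% and 28.1% of all rows were. With the animal block 0% of all rows were called higher after atrophy, so the atrophy calls of Max and Mlx were lost. Max had 0.88 after repeated atrophy, and Mxi1, which encodes a competitor of MYC for MAX, was lower then only once rescaled (-0.88).

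Per kilobase of transcript, the scale on which genes can be compared in level, Npm1, Nop10 and Ncl were the most abundant of the 42 in control, at means of 89.5, 85.5 and 85.3 CPM per kilobase, and Utp20 and Heatr1 the least, at 1.67 and 1.76. Polr1a was below the middle of that order in control, at 10.8 CPM per kilobase (7.50 without the right limb of atrophy animal 3). After repeated atrophy only Npm1, Ncl, Nop10 and Polr1d, at 173, 167, 167 and 101, stood above its mean of 83.5. After recovery Polr1a was at 5.75. These are means over the limbs of a group, with no test between genes, and lengths are those of the deposited table.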

How the data were processed

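The deposited table holds the values of 24 limbs and 3 further columns that match no sample and were not used. Per the paper's methods, the authors filtered contaminants with bowtie2 and aligned to rn7 by STAR in Partek Flow; the annotation and counting step are not given in the sources used here. The values the authors deposited are CPM summing to 1000000 in each column, and 28 exact duplicates among the 14271 rows were dropped. The methods name a median of ratios scaling, which the table does not have, so it was run as an alternative. Whole reads were not recovered (85.4% to 88.6% of low values were whole), and no count test was run.

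Rows with values above 0 in 3 or more fitted limbs entered limma 3.58.1 (R 4.3.3) on log2(CPM + 1) with an intensity trend, calling folds from 1.2 with p-values adjusted over all rows (Benjamini-Hochberg) up to 0.05; 18 limbs of TTX animals shared 1 fit. Fold changes on this scale understate low genes. Rescaling trimmed 30% of ratios and 5% of levels. The fit was also run on simulated data with known changes, as a check of the code only. Left and right limbs are paired by animal in the labels. The mean correlation of their deviations was 0.12 in TTX and 0.74 in sham animals over 10619 rows, and values from fits with the animal as a block stand beside the genes given limb by limb where a call was lost; the block ended every call after atrophy and after recovery and between treated groups. Limbs described individually were those of Myc, Polr1a, Polr1b, Ubtf, Rrn3, Ncl, Npm1, Fbl and, in each role, the genes called with the largest rise or fall; others are named as chosen later. Some single-gene values of the related lists are not reported here. Alternatives are in the closing section. The genes, lists and tests were chosen with earlier results of these data known. Python 3.11.15, numpy 2.4.6 and pandas 2.3.3 were used.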

Additional observations from a re-analysis of the deposited data

Results flagged for a closer look

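For 12 of the 42 genes, 1 of the 9 control limbs lay far above the other 8 by Dixon's criterion (the gap to the next limb over the whole range), and in each case it was the right limb of atrophy animal 3. Polymerase I genes among them were Polr1a at 226 CPM (next 74.5) and Polr1c at 24.3 CPM (next 15.7). Fbl and Nhp2 of the snoRNPs stood at 35.6 and 35.7 CPM (next 24.5 and 25.2), and Mybbp1a at 252 CPM (next 157). Of the small subunit factors, the limb held Rrp9 at 25.02 CPM (next 16.2), Nop14 at 37.97 CPM (next 26.8) and Utp4 at 43.99 CPM (next 27.4). Large subunit factors were Nop2 at 45.4 CPM (next 29.7), Pes1 at 86.8 CPM (next 55.1), Rrs1 at 20.00 CPM (next 11.96) and Rrp1 at 56.2 CPM (next 31.7). Chance flags about 1 in 20 groups of normally distributed values, and the 42 genes of a limb are not independent. The share of all rows flagged in the same way is not given here. On the axis of largest variation over the rows measured, this limb lay at 15.9, against -48.97 to -3.26 in the other control limbs. Its high values are thus not shown to be particular to these genes. In the same limb the satellite cell markers summed to 107 CPM, the highest of the control limbs, and the fibre genes to 208070 CPM, where the other control limbs had 206843 to 279499 CPM. The part of these in the high values was not tested. Without this limb, 36 genes were higher after atrophy and 37 after repeated atrophy.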

How the results depend on the processing

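Counts of genes called are compared here with those from the deposited values. With trimmed-mean rescaling, the genes higher after atrophy went from 27 to 9 and those lower from 0 to 1, those higher after repeated atrophy from 35 to 15, those lower between recovery and atrophy from 25 to 9 and those higher between repeated atrophy and recovery from 32 to 17. A median of ratios gave 9, 1, 16, 8 and 17. With the replicate block (the animal as a fixed effect), the counts were 0 higher after atrophy, 0 lower after recovery, 0 lower between recovery and atrophy and 0 higher between repeated atrophy and recovery, and with block and rescaling together 0, 0, 0 and 0, with 18 higher after repeated atrophy. The block changed no other count by over 1.5 times. Rescaled with atrophy animal 2 left out, an alternative chosen after the data were seen, the counts were 9 higher and 1 lower after atrophy, 15 higher and 1 lower after repeated atrophy, 6 lower between recovery and atrophy and 16 higher between repeated atrophy and recovery. The genes lower after recovery numbered 1 with a fold of at least 1.5, with a pseudocount of 10, and without control replicate 9, the right limb of atrophy animal 3, which was also chosen after the data were seen.

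Leaving out 1 animal at a time (or the right limb of atrophy animal 3 alone) gave 0 to 36 genes higher after atrophy, 16 to 37 after repeated atrophy and 0 to 2 lower after recovery, 1 to 31 lower between recovery and atrophy and 15 to 33 higher between repeated atrophy and recovery. Shares of all rows called under these omissions are not given, so these ranges are not shown to be particular to the genes examined. A pseudocount of 0.1, no filter, a filter at a mean of 1 CPM, no trend, 12 right limbs as control and rows summed per symbol kept all counts within 1.5 times. For the named genes, 2135 single values kept their direction and side of the threshold, 119 that passed in neither fit changed sign (31 of them after recovery), 225 no longer passed, 11 passed where they had not, and 0 of the called ones changed sign. Causes were not tested. For the sham limbs, no replicate block left the count between sides at 0. Count tests on recovered reads were not run, since the reads were not whole.

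Groups of 3 limbs limit these results. For depth, the inferred 18.9 to 30.9 in units of 1e6 reads gives few reads to genes near 1 CPM, and a gene that did not pass is not shown to be unchanged.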
